A study of Mus musculus with 6 samples.

Results

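The Notch pathway genes examined here were 10 members, chosen by symbol with earlier results of these data known, among them the Notch4 call. These are the receptors Notch1, Notch2, Notch3 and Notch4, the ligands Jag1, Jag2, Dll1 and Dll4, and the target genes Hey1 and Hes1. All 10 were measured, among 22180 genes tested, each through the brightest of its probe sets that are annotated to that gene alone. They were read on 6 one-colour arrays from mouse cells carrying NeuNDL, a constitutively active ErbB2 (Neu) receptor that drives mammary tumours. There were 3 arrays from cells labelled SLK wild-type and 3 from cells labelled SLK knockout, SLK being a Ste20-like kinase that acts in focal adhesion turnover. Both groups carry this oncogene, were left untreated and grew in the same serum-containing medium with a mammary epithelial supplement. The series names passages 9, 19 and 29, but which passage, clone or line an array stands for is not labelled. The sources used here do not say how Slk was deleted. Nothing in the labels says that the 3 arrays of a genotype came from separate cultures, so p-values measure the spread between these arrays only.

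Notch receptors are single-pass membrane proteins that are activated by ligands of the Jagged and Delta-like families on a neighbouring cell. Ligand binding exposes the receptor to an ADAM protease and then to gamma-secretase, and the released intracellular domain enters the nucleus, joins the DNA-binding protein RBPJ and turns on genes such as those of the Hes and Hey repressors. In the mammary gland Notch signalling is known for its part in luminal fate, and Notch4 was found as a gene activated by insertion of mouse mammary tumour virus.

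The arrays were alike in scale, with medians of 3.93 to 3.97 and correlations between arrays of 0.990 to 0.994 across probe sets. All values are deposited log2 values, and differences are knockout minus wild-type on that scale. Slk itself read 8.21, 8.30 and 8.34 on the wild-type arrays and 7.14, 7.21 and 7.20 on the knockout arrays. It was lower on each knockout array (log2 fold change -1.10, SE 0.06, limma adjusted p = 0.0021). The knockout values of Slk still lay above the mean of the median gene, and what this remaining signal stands for was not tested. Of the mammary epithelial markers, Krt8 read 10.31 to 10.50 and Krt18 10.46 to 10.65, whereas 6 of the 15 measured, among them Trp63 and Elf5, had a mean below that of the median gene (4.39).

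Among the Notch genes 1 receptor changed past the threshold: Notch4 rose 1.36-fold in knockout cells. None of the other 9 members passed. The ligand Jag1 was higher, and the targets Hes1 and Hey1 lower, on each knockout array than on any wild-type array, by 1.15-fold, 1.13-fold and 1.12-fold, without passing. The 4 ligands had higher means in knockout cells (Dll1 by its brighter probe set), and both targets had lower means. Of all 22180 genes 11429 had a higher and 10751 a lower mean. The threshold was an adjusted p of 0.05 in limma, Benjamini-Hochberg adjusted over all 22180 genes. By that rule 0.437% of all genes were called, 0.325% as higher and 0.113% as lower, so that 1 call among 10 genes is a single gene and describes the family no further.

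**Figure D1:**
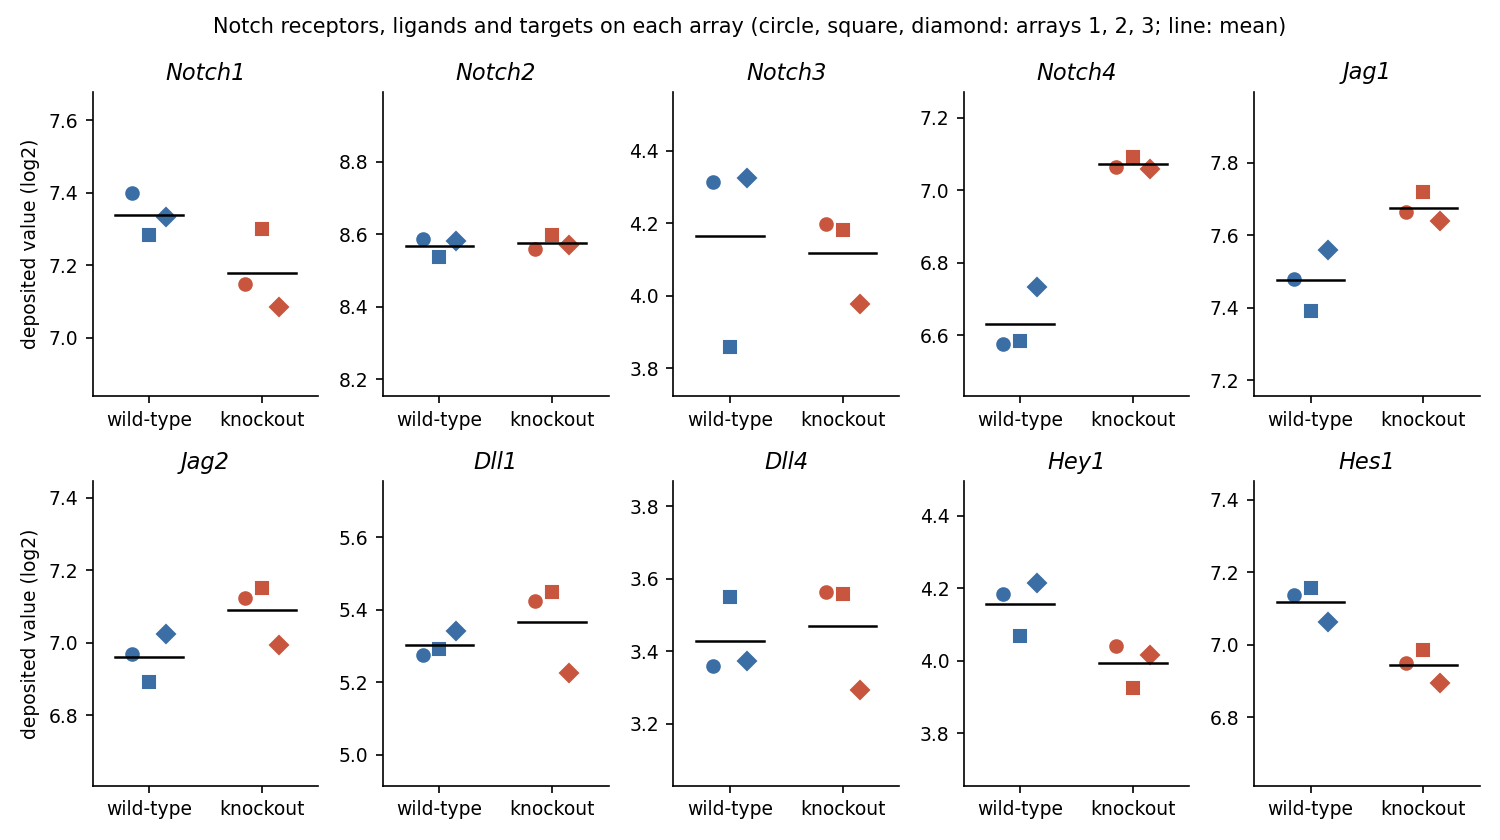
Deposited log2 value of each Notch gene on each array, with wild-type arrays in blue and knockout arrays in red; symbols mark arrays 1, 2 and 3, black lines the group means, and every panel spans the same height on the log2 axis. Notch4 and Jag1 have their knockout points wholly above the wild-type points, Hes1 and Hey1 wholly below, and the other 6 genes overlap.

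Notch4, the receptor that is best known from endothelial cells and from virus-induced mammary tumours, read 6.57, 6.58 and 6.73 on wild-type arrays 1 to 3 and 7.06, 7.09 and 7.06 on knockout arrays 1 to 3. The knockout arrays lay close together and well above the highest wild-type array. The means were 6.63 ± 0.09 (SD, n = 3) and 7.07 ± 0.02 (SD, n = 3), a log2 fold change of 0.44 (SE 0.06, 95% interval 0.30 to 0.59, limma adjusted p = 0.049). The size of this difference hardly moved when any 1 array was left out (0.41 to 0.49), but the call was lost each time, with adjusted p from 0.083 without wild-type array 3 to 0.20 without wild-type array 2. It was also lost, at the same size or slightly above, with quantile normalization (adjusted p = 0.050), with probe sets averaged per gene (0.053) and with every probe set tested by itself (0.185).

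**Figure D2:**
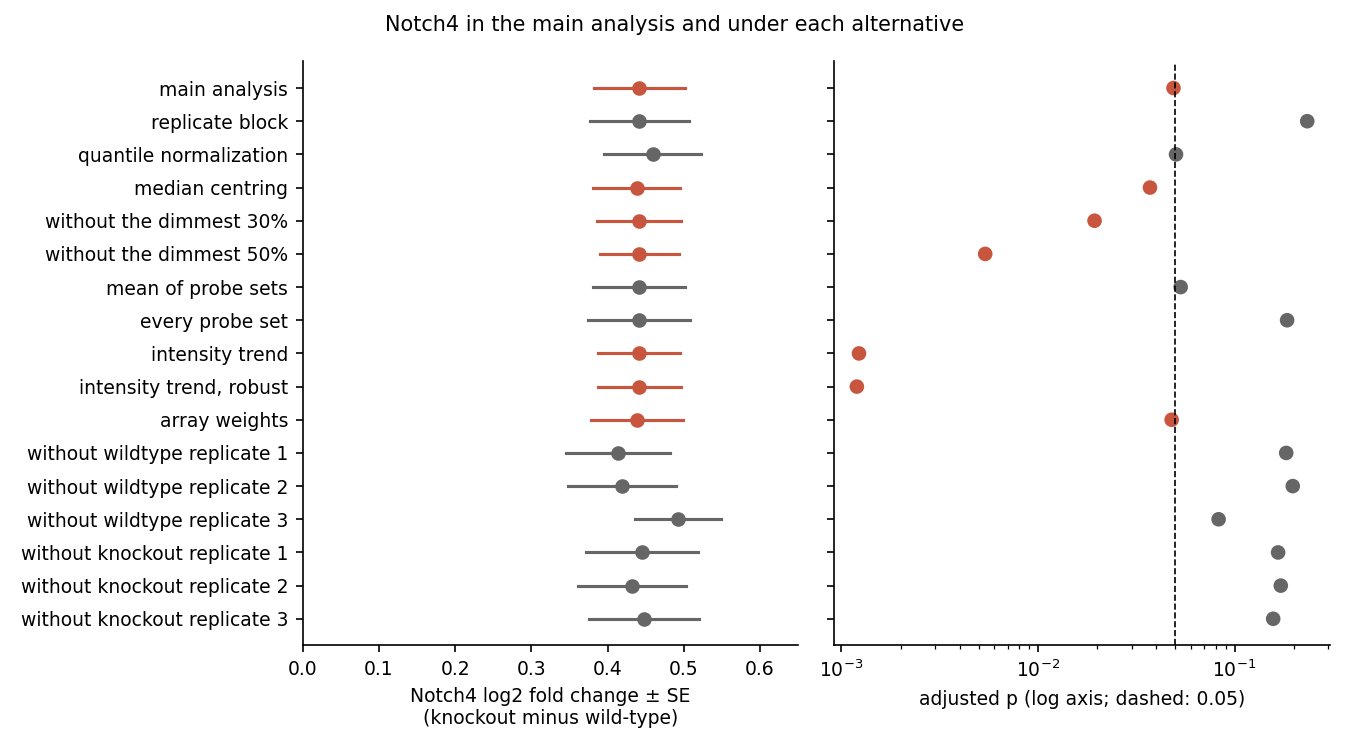
Notch4 in the main analysis and under 16 alternatives: the log2 fold change with its standard error on the left, the adjusted p on a log axis on the right, red where it is under 0.05. The fold change stays between 0.41 and 0.49 throughout, while the adjusted p is under the threshold in 6 of the 16.

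The bases just before the start of Notch4 are shown because it was the member that passed. RefSeq windows on GRCm38.p6 were used for 8 of the 10 members; those of Hes1 and Hey1 were not used here. Letters were searched on both strands over 250 bases. GTGGGAA is the core recognised by RBPJ. TGANTCA is a loose form of the AP-1 site, whose middle base is C or G. CACGNG is recognised by Hes and Hey repressors. In that order these letters occur in 5.42%, 6.75% and 23.5% of all 32851 such windows. The Notch4 window (chr17:34564045-34564294, plus strand) holds none of the 3, and so has no capitals.
Notch4: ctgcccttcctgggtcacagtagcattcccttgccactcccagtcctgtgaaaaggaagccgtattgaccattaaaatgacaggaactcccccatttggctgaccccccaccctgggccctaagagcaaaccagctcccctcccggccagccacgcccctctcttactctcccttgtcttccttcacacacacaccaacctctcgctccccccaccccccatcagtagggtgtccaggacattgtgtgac

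The other receptors gave smaller differences. Notch1, a luminal determinant in the mammary gland, read 7.40, 7.28 and 7.33 in wild-type and 7.15, 7.30 and 7.08 in knockout cells, so that knockout arrays 1 and 3 were below all wild-type arrays and knockout array 2 among them. Its log2 fold change was -0.16 (SE 0.07, 95% interval -0.33 to 0.01, limma adjusted p = 0.52). Notch2 read 8.59, 8.54 and 8.58 against 8.56, 8.60 and 8.57, groups that overlapped, and its interval of -0.10 to 0.12 around 0.0078 was the narrowest of the 10. Notch3, a receptor known from mural cells as well as epithelium, was dim, at 4.31, 3.86 and 4.33 against 4.20, 4.18 and 3.98. Wild-type array 2 was the lowest of all and knockout array 3 the next, and the interval of the Notch3 difference was wide (-0.38 to 0.29). Whether the Notch4 difference is larger than those of the other receptors was not tested.

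Among the ligands, Jag1, the Jagged ligand that is widely expressed in epithelia, read 7.48, 7.39 and 7.56 in wild-type and 7.66, 7.72 and 7.64 in knockout cells. Its lowest knockout array was above its highest wild-type array, for a log2 fold change of 0.20 (SE 0.06, 95% interval 0.05 to 0.34, limma adjusted p = 0.34). The Jag1 window (chr2:137116521-137116770, minus strand) is shown because this was the ligand whose groups did not overlap, and it holds CACGNG letters at 2 places, set in capitals, which begin 249 and 171 bases before the start.
Jag1: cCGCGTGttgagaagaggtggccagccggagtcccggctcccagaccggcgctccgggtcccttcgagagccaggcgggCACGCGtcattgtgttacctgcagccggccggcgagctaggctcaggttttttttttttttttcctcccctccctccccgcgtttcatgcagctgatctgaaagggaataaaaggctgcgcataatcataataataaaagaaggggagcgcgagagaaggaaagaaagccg

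In all, 5 of the 8 members with a window hold CACGNG (Dll4, Jag1, Notch2, Dll1 and Notch3), 1 holds TGANTCA (Dll1, in 1 of its 2 windows) and none holds GTGGGAA. Notch1, Jag2 and Notch4 hold none of the 3. Such matches describe these letters in these windows and do not show binding.

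Jag2, the second Jagged ligand, read 6.97, 6.89 and 7.03 in wild-type and 7.12, 7.15 and 6.99 in knockout cells. Knockout array 3 fell among the wild-type arrays while the other two were above them, and the log2 fold change was 0.13 (95% interval -0.03 to 0.28, limma adjusted p = 0.58). Dll1, a Delta-like ligand tied to mammary stem cells, repeated this arrangement at 5.28, 5.29 and 5.34 against 5.42, 5.45 and 5.23, with knockout array 3 the lowest of all 6. Its log2 fold change was 0.06 (95% interval -0.11 to 0.24), and a second, dimmer probe set of Dll1 gave -0.14, so the direction depends on the probe set. With 1 array left out the log2 fold change of Jag2 ran from 0.09 (without wild-type array 2) to 0.18 (without knockout array 3), and that of Dll1 from 0.02 (without knockout array 2) to 0.13 (without knockout array 3), with adjusted p of at least 0.46 and 0.51. Dll4, the ligand known for its part in sprouting blood vessels, was dim at 3.36, 3.55 and 3.37 against 3.56, 3.56 and 3.29, with overlapping groups (log2 fold change 0.04, 95% interval -0.19 to 0.27). A probe set shared by Dll4 and the transcript Gm14207 gave 0.04 as well. No detection calls were used, so the low values of Dll4, Notch3 and Hey1, whose means lay below the median gene, do not show whether these genes were on.

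Both target genes lay lower in knockout cells. Hes1, the helix-loop-helix repressor that is the classical readout of Notch signalling, read 7.14, 7.16 and 7.06 in wild-type and 6.95, 6.99 and 6.90 in knockout cells. The groups did not overlap, and the log2 fold change was -0.18 (SE 0.05, 95% interval -0.30 to -0.05, limma adjusted p = 0.33). Hey1, a related repressor, read 4.18, 4.07 and 4.22 against 4.04, 3.93 and 4.02. It too had no overlap, but the gap between wild-type array 2 and knockout array 1 was only a few hundredths of a log2 unit, and the log2 fold change was -0.16 (SE 0.06, 95% interval -0.31 to -0.01, limma adjusted p = 0.45). With 1 array left out the Hes1 value ran from -0.20 to -0.15 and that of Hey1 from -0.20 to -0.13, and neither passed under any alternative.

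**Figure D3:**
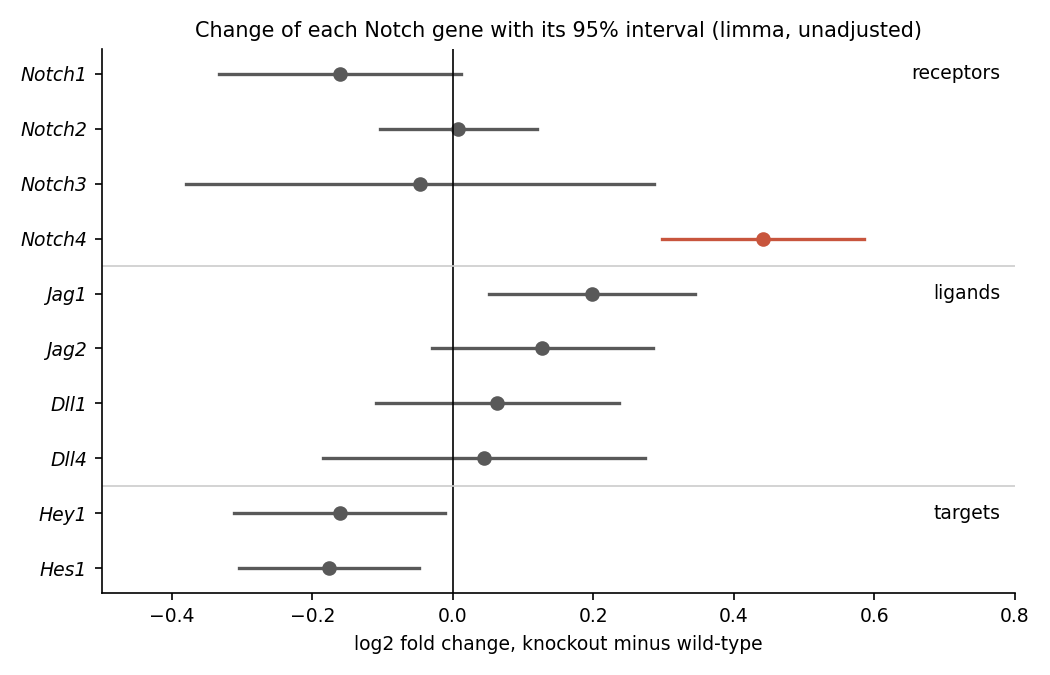
Log2 fold change (knockout minus wild-type) of each Notch gene with its 95% interval from limma, not adjusted for the number of genes; red marks the gene past the adjusted threshold. The intervals of Notch4 and Jag1 lie above 0, those of Hey1 and Hes1 below 0, and the others span it.

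Counted together, 4 of the 10 members had no overlap between the genotypes, 2 of them higher and 2 lower. Of all genes tested 16.9% had no overlap, 8.79% higher and 8.1% lower. The median log2 fold change of the 10 was 0.03, beside 0.0038 over all genes. Within the knockout group, array 3 gave the lowest value for 8 of the 10 members (all but Notch2 and Hey1), and for 40.0% of all genes. Within the wild-type group, array 2 gave the lowest value for 6 of the 10 and for 30.4% of all genes. A part of these single arrays in the members' values beyond the leave-one-out values given here was not tested.

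The remaining genes of the pathway were read from 9 lists by role, with 81 of 86 genes measured. None passed the threshold in either direction in limma, and 11 (13.6%) had an unadjusted p under 0.05, against 10.2% of all genes. There was no overlap between the genotypes for 19 of the 81 (23.5%), 6 higher and 13 lower, and the median log2 fold change was -0.01. Of the 81, 34 had a higher and 47 a lower mean, beside 11429 higher and 10751 lower of all 22180 genes. From each list the 2 genes with the smallest p are given.

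Among 9 other and non-canonical ligands, 7 had a higher mean in knockout cells. Mfap5, a microfibril protein that can bind Notch1, read 5.43, 5.24 and 5.38 in wild-type and 5.07, 5.02 and 4.92 in knockout cells, lower on each knockout array (log2 fold change -0.35, SE 0.07, limma adjusted p = 0.15). Ccn3, a matricellular protein, had 0.22 (SE 0.09, adjusted p = 0.50). Of the 4 ubiquitin ligases that let ligands be endocytosed, Mib2 had -0.16 and Neurl1b -0.07.

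The genes that modify and cut the receptors held no call. Among 6 glycosyltransferases that decorate the EGF-like repeats, Eogt had -0.11 and the fringe enzyme Lfng -0.07. Among 9 measured proteases, which included the ADAM enzymes and gamma-secretase subunits, Aph1b, one of the forms of the APH1 subunit, read 4.68, 4.48 and 4.72 in wild-type and 4.92, 4.84 and 4.86 in knockout cells. Its groups did not overlap (log2 fold change 0.24, SE 0.08, limma adjusted p = 0.33). Ncstn, the gene of the gamma-secretase subunit nicastrin, had 0.08.

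Of 9 genes of the RBPJ complex and its coactivators, Maml2, a Mastermind coactivator, had -0.16 (SE 0.06, adjusted p = 0.40) and Rbpj itself 0.11 (SE 0.06, adjusted p = 0.62). Rbpj read 9.26, 9.29 and 9.27 in wild-type and 9.38, 9.29 and 9.47 in knockout cells, where the second knockout array lay just above the highest wild-type one. Among 11 measured corepressors Tle3 had -0.10 and Cir1 -0.08. Among 11 measured negative regulators and other modifiers of the receptor, 8 had a lower mean in knockout cells. Numbl, a relative of the endocytic adaptor Numb, was lower on each knockout array (-0.20, SE 0.05, limma adjusted p = 0.25), and the deltex gene Dtx4 was higher on each (0.17, SE 0.06, adjusted p = 0.41).

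Further readouts of the pathway did not share one direction. Of 10 other Hes, Hey and related factors, 4 had a higher and 6 a lower mean. Bhlhe40, a related repressor that is not specific to Notch, had -0.16 and Heyl, a direct Notch target, 0.27 (SE 0.10, adjusted p = 0.45). Heyl was dim, at 4.40, 4.46 and 4.61 against 4.79, 4.90 and 4.57, and its groups overlapped through knockout array 3. Of 14 other published targets 10 had a lower mean, with a median of -0.07, and 4 had no overlap (28.6%), all lower. Of all genes tested, 8.1% lay lower without overlap. Sox9, a progenitor transcription factor, read 10.01, 10.05 and 9.93 in wild-type and 9.74, 9.78 and 9.65 in knockout cells (log2 fold change -0.27, SE 0.06, limma adjusted p = 0.18). Gata3, the luminal transcription factor, read 8.84, 8.79 and 8.84 against 8.62, 8.61 and 8.65 (-0.20, SE 0.05, adjusted p = 0.22), but the mean of its probe sets gave -0.09 (adjusted p = 0.66). Nrarp, a feedback inhibitor that is a sensitive Notch target in many tissues, read 6.54, 6.60 and 6.57 against 6.68, 6.49 and 6.67 (0.05, SE 0.07, adjusted p = 0.87). Leaving out single arrays moved some of these small values. Without wild-type array 1, Ccn3 had 0.13, Lfng -0.04, Cir1 -0.0090 and Neurl1b -0.0062. Without wild-type array 3, Eogt had -0.05, and without knockout array 3, Rbpj had 0.06 and Neurl1b -0.0049.

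**Figure D4:**
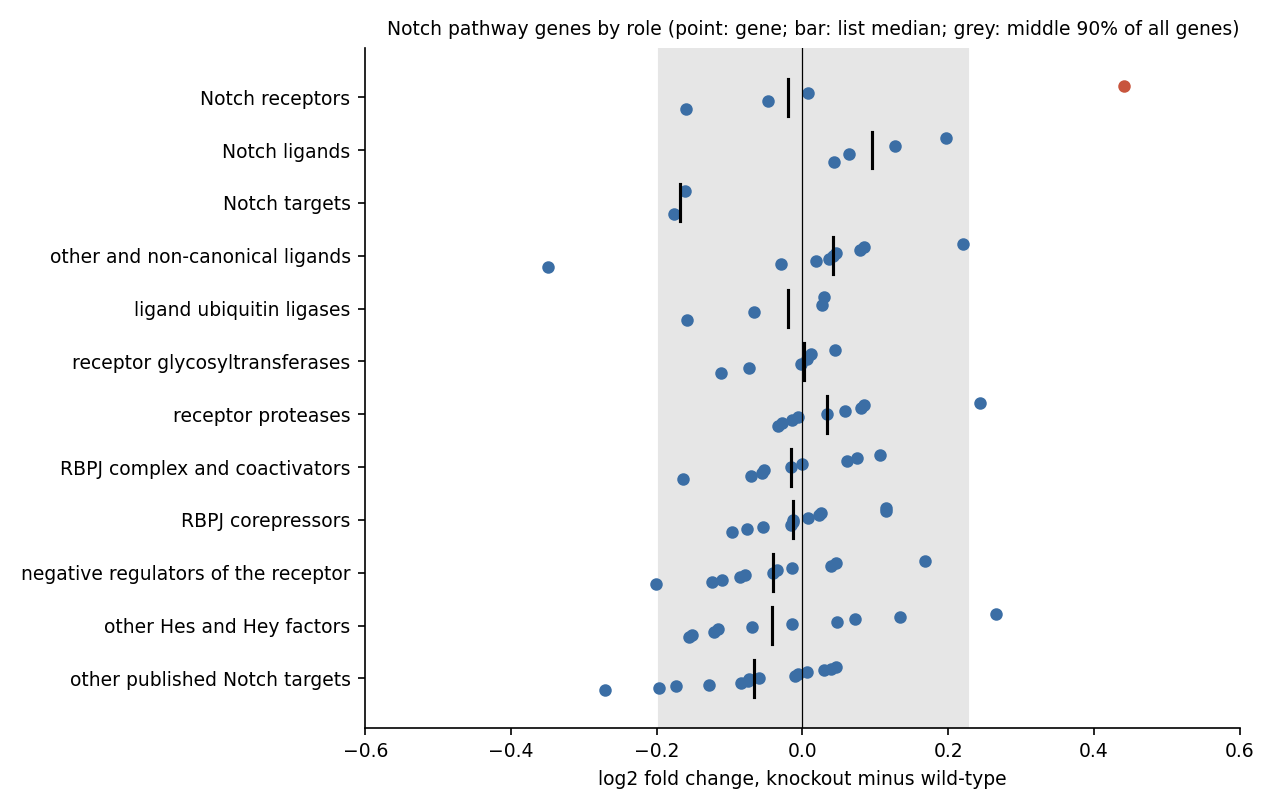
Log2 fold change (knockout minus wild-type) of each measured Notch pathway gene by role: points are genes, black bars list medians, and the grey band, from -0.20 to 0.23, holds the middle 90% of all genes tested. Notch4, in red, is the one point past the adjusted threshold and lies furthest to the right.

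Because Notch4 and Dll4 are known from endothelial cells, endothelial markers were read beside them. Of 14 markers 12 had a mean below the median gene, and none passed in limma, with 5 of 14 at an unadjusted p under 0.05 (10.2% over all genes). Their mean log2 value ran from 3.57 to 3.63 over the wild-type arrays and from 3.60 to 3.65 over the knockout arrays. Pecam1 lay between 4.001 and 4.22 and Cdh5 between 3.71 and 4.40 over all arrays, with overlapping groups. Robo4, Sox17 and Sox18 were higher on each knockout array (0.23, 0.22 and 0.13), and Kdr and Tek lower on each (-0.32 and -0.22). These are 5 of 14 without overlap (35.7%), against 16.9% of all genes, and 9 of the 14 had a higher mean. No marker can be read as 0 on this scale, and a part of other cells in the Notch4 difference was not tested. Fewer cells of a type and less RNA per cell cannot be told apart in such bulk samples. Of 11 mural cell markers, which include Notch3, 1 fell (Pdgfrb, -0.67, limma adjusted p = 0.0066), where 0.113% of all genes were called lower. Acta2 (-0.47, limma adjusted p = 0.055) and Mcam (-0.28) were also lower on each knockout array. That makes 3 of 11 without overlap (27.3%, against 16.9% of all genes), and 4 of the 11 had a higher mean. The list's mean value ran from 4.66 to 4.72 in wild-type and from 4.49 to 4.62 in knockout cells. Of the 11 mural markers 6 had a mean below the median gene, and Pdgfrb, Acta2 and Mcam were not among these. Of 9 leukocyte and 9 fibroblast markers none passed, with 2 and 5 at an unadjusted p under 0.05, a level that 10.2% of all genes reached. The leukocyte mean ran from 4.14 to 4.26 against 4.19 to 4.43, and the fibroblast mean from 5.28 to 5.32 against 5.29 to 5.34. Means below the median gene were seen for 7 of the 9 leukocyte and 3 of the 9 fibroblast markers. Of the leukocyte markers 3 had no overlap (33.3%, against 16.9% of all genes), all higher: Tyrobp, Fcer1g and Cd14. Of the fibroblast markers 6 had no overlap (66.7%). Dcn (0.43), Postn (0.37) and Pdgfra (0.10) were higher, and Col1a1 (-0.33), Col1a2 (-0.19) and Col3a1 (-0.19) lower. Of 15 measured mammary epithelial markers 2 fell, Cdh1 (-0.43) and Krt14 (-0.66), and the list's mean ran from 6.54 to 6.58 against 6.41 to 6.45, without overlap. The list was mixed in direction, and 7 of the 15 had a higher mean in knockout cells. On each knockout array 5 were higher, Krt8 (0.15), Krt18 (0.14), Krt19 (0.08), Cldn3 (0.13) and Erbb3 (0.12), none of them past the threshold. Another 6 were lower on each: Cdh1, Krt14, Epcam (-0.35), Cldn7 (-0.48), Esr1 (-0.22) and Gata3 (-0.20). Of all genes tested, 8.79% were higher and 8.1% lower without overlap, and 0.113% were called lower.

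The genes whose pattern over the 6 arrays was most like that of Notch4, by the Euclidean distance between deviations from each gene's mean, were Dsc2, Cyth4 and Cntfr. Dsc2, a desmosomal cadherin, lay at a distance of 0.08 log2 units and had a log2 fold change of 0.40 (limma adjusted p = 0.077). Cyth4, an exchange factor for ARF GTPases, lay at 0.11 and rose by 0.49 (adjusted p = 0.041). Cntfr, a ciliary neurotrophic factor receptor subunit, lay at 0.11 with 0.37 (adjusted p = 0.080). The 3 genes were picked by this distance, so log2 fold changes near that of Notch4 follow from the choice and are no separate result. The genes next to Notch4 in the RefSeq order were looked up after its value was known. The 3 tested genes before it, Btnl1, BC051142 and Btnl5-ps, had log2 fold changes of -0.20, -0.05 and 0.06, and the 3 after it, Gpsm3, Pbx2 and Ager, had 0.17, 0.09 and 0.05. Their adjusted p in limma ran from 0.56 to 0.91, and of the 6 only Gpsm3 was higher on each knockout array.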

How the data were processed

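Total RNA from untreated cells was biotin-labelled and read on 6 arrays. The authors deposited 1 table of log2 values for 41345 probe sets, made with Affymetrix Expression Console 1.4.1.46 per the submitters' processing notes. For background correction, normalization, summarisation and log base: not given in the sources used here. Base 2 was assumed because the highest value is 12.4.

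Gene symbols come from the platform annotation (23521 with 1 symbol, 1814 with several, 16010 not listed there). Only single-symbol probe sets were tested, the one with the highest mean per symbol, giving 22180 genes. Among the members only Dll1 had a second such probe set. The pathway genes without such a probe set were not analysed here. Genotypes come from the sample titles and were compared with limma 3.58.1 in R 4.3.3 (lmFit, eBayes without trend, no covariate, no filter on dim genes), two-sided, Benjamini-Hochberg adjusted, threshold 0.05. Intervals and standard errors are limma's moderated ones. The fit was also run on simulated arrays with independent noise as a check of the code, and no result here rests on it. Alternatives were a replicate block, quantile normalization, median centring, filters on dim genes, means of probe sets, every probe set, intensity trends, array weights and leaving out each array.

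The text names Slk, all 10 members, from each pathway list the genes past the threshold or otherwise the 2 with the smallest p, and the 3 genes nearest in pattern to each member past the threshold. Nrarp, the markers named, the neighbours of Notch4 and the motifs searched were chosen after values were seen. The members and lists were chosen with earlier results of these data known, among them the Notch4 call. Promoter windows are RefSeq's on GRCm38.p6; the deposited table names no build.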

Additional observations from a re-analysis of the deposited data

How the results depend on the processing

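The Slk difference kept its direction and its call under all 16 alternatives (log2 -1.14 to -1.07). None of the other 9 members gained a call under any of them. Notch3, Dll4 and Hey1 fell out with the dimmest 50% of genes and so had 15 alternatives. Notch4 kept its direction in all 16 and its call in 6. These included median centring (limma adjusted p = 0.037) and the filters on the dimmest 30% (0.019) or 50% of genes (0.0054). The others were an intensity trend (0.0012), the same with robust estimation (0.0012) and array weights (0.048). The count of members called higher was 0 with the replicate block (Notch4 adjusted p = 0.23), with quantile normalization, with means of probe sets and with every probe set, and 0 to 0 with 1 array left out. Same-numbered arrays of the 2 genotypes did not deviate together (correlations of 0.04, 0.02 and -0.07 across genes), and not every array correlated best with its own number, so the numbers were not taken as pairs.

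Over all genes 72 were called higher and 25 lower. With the replicate block these became 5 and 1, without the dimmest 30% 143 and 63, without the dimmest 50% 202 and 139, with every probe set 25 and 4, with an intensity trend 265 and 176, and with a robust trend 264 and 179. With 1 array left out they were 13 to 24 and 2 to 5. The filters test fewer genes, every probe set tests more (41345), and leaving out an array tests fewer samples. The replicate block adds terms to the fit. How far each of these moved the counts, and the cause of the other shifts, was not tested. Other pathway genes called lower went from 0 to 3 without the dimmest 50% (Mfap5, Sox9 and Gata3) and to 2 with either trend fit (Sox9 and Gata3).

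The direction of 4 members that did not pass turned. Dll1 had -0.040 with the mean of its probe sets. With 1 array left out Notch2 ran from -0.0073 to 0.017 (-0.0032 without knockout array 2), Notch3 from -0.20 to 0.033 (0.027 without wild-type array 1, 0.033 without wild-type array 3, 0.024 without knockout array 3) and Dll4 from -0.0023 to 0.13. Notch3, Dll4 and Hey1 were dim, and 3 arrays a group limit every value.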
